A study of Mus musculus with 36 samples.

Results

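The 8 genes of the complement system described here, called the members below, were followed over 36 libraries of BV-2 cells. They are C3, factor B (Cfb), the 3 chains of C1q (C1qa, C1qb, C1qc), properdin (Cfp) and the receptors C3ar1 and C5ar1. Each was found by its symbol, and all 8 were among the 19879 genes listed in at least 1 deposited table. The rule itself uses no measured value.

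BV-2 is an immortalised mouse microglial line, so the replicates were cultures of repeated experiments and not animals. Poly(A) RNA was sequenced in 12 groups of 3 libraries. Cells received DMSO, EtOH, lipopolysaccharide (LPS, a bacterial cell wall component, 600 ng/mL) or LPS with 30 µM dimethyl fumarate (DMF), 30 µM monomethyl fumarate (MMF) or 6 µM cannabidiol (CBD), each for 4 h and 24 h. Serum was lowered to 0.1% for the experiments with LPS, and the final vehicle concentration was 0.2%, with DMF and MMF dissolved in DMSO and CBD in EtOH. The vehicle given with LPS alone is not stated in the sources used here. Replicates carried the numbers 1 to 3 in the groups with LPS and 4 to 6 in the vehicle groups.

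Complement is a cascade of plasma and cell-derived proteins that marks particles for removal and calls in leucocytes. The classical route starts when C1q binds a surface. The alternative route amplifies itself on C3 through factor B, and properdin stabilises the enzyme that it forms. All routes meet at C3, the cleavage of which releases a small fragment that acts on C3ar1, and the cleavage of C5 releases one that acts on C5ar1. In the brain, microglia are known as a main source of C1q, and they also make C3 and carry both receptors.

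On the mouse genome build GRCm39, C3 (ENSMUSG00000024164) spans positions 57510970 to 57535136 of chromosome 17, and Cfb (ENSMUSG00000090231) spans 35075350 to 35081494 of the same chromosome. The C1q genes lie side by side on chromosome 4, with C1qb (ENSMUSG00000036905) at 136607440 to 136613498, C1qc (ENSMUSG00000036896) at 136617115 to 136620376 and C1qa (ENSMUSG00000036887) at 136623228 to 136626114. Cfp (ENSMUSG00000001128) lies on chromosome X at 20791693 to 20797794. C3ar1 (ENSMUSG00000040552) lies on chromosome 6 at 122824097 to 122833120 and C5ar1 (ENSMUSG00000049130) on chromosome 7 at 15980668 to 15993465. All 8 are protein-coding genes on the minus strand, and values are whole-gene counts over exons. In the GENCODE annotation, 334 of the 5183 exon bases of C3 and 278 of the 1741 of Cfp are shared with a lncRNA on the other strand. Cfb shares 2246 of its 3420 exon bases with the protein-coding gene Gm20547 on its own strand and 1704 with Nelfe on the other. The strand setting of the counting and its handling of shared exons are not given in the sources used here. Reads on these stretches cannot be assigned with certainty, and strand cannot separate Cfb from Gm20547. Low Cfb counts below may thus not mean little Cfb RNA, which was not tested.

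Promoter sequences were available for 6 of the 8 members in the RefSeq table (build GRCm38.p6), and none is shown for Cfb and C1qa. The stretches of C3, C3ar1 and Cfp are shown because these 3 transcripts were higher after 24 h of LPS. Each runs 5′ to 3′ on the strand of the gene over 230 bases, from position -250 to position -21 relative to the RefSeq start. Each matched GRCm39 at a single place without a mismatch, at chr17:57535157-57535386 for C3, chr6:122833137-122833366 for C3ar1 and chrX:20797815-20798044 for Cfp, all on the minus strand, and no annotated exon reached into these windows. Capitals mark matches, on either strand, to an NF-kB site (GGG, any 5 bases, CC), an interferon-stimulated response element core (ISRE, GAAA, any 2 bases, GAAA), C/EBP half-sites (TTNNGNAA) or the PU.1 core (GAGGAAG).
C3: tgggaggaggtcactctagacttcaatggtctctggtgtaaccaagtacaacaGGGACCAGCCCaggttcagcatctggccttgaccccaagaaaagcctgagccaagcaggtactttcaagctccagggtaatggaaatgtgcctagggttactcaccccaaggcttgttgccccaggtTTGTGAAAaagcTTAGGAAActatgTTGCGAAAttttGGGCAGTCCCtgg
C3ar1: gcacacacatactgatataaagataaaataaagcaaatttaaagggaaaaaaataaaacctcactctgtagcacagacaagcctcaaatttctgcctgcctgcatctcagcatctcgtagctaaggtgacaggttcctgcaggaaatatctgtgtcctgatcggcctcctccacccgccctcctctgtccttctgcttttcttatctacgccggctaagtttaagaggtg
Cfp: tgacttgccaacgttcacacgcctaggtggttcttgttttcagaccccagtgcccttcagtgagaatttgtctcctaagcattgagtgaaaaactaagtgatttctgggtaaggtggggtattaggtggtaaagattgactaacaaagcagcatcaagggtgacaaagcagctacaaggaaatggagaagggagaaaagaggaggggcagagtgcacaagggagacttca
The C3 stretch held NF-kB matches that started at -197, at -196 on the other strand and at -33, and C/EBP matches that started at -70, -58 and -45. C3ar1 and Cfp held no match to any of the 4 motifs in this window. C5ar1 held a C/EBP match at -157, C1qb held NF-kB matches at -191 and, on the other strand, at -190, and C1qc held matches to 3 of the 4 motifs. Annotated exons covered 131 of the 230 bases of the C1qc window and 28 of the 230 of the C5ar1 window. Of the 32851 promoters in the table, 42.7% held an NF-kB match, 35.2% a C/EBP match, 9.54% a PU.1 match and 2.72% an ISRE match over the same window. These are matches of letters and were not measured as bound sites.

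Counted reads per library ran from 14.1 M to 26.7 M (M, mega), with a median of 16.2 M. All 12 microglia and macrophage markers had a mean of at least 10 normalised reads, with a summed level of 656 to 1041 RPKM over the groups (reads scaled to exon length and to the reads of the library). Of the markers of other cells, 3 of 8 neuronal, 0 of 6 astrocytic, 2 of 6 oligodendrocytic, 3 of 5 endothelial and 0 of 5 fibroblast genes reached that mean, with summed levels of at most 8.92 RPKM. Among the libraries, replicate 2 of the LPS groups and replicate 5 of the vehicle groups stood apart for C3. Its level was highest in replicate 2 of all 8 LPS groups and in replicate 5 of all 4 vehicle groups. C3ar1 and C5ar1 were also highest in replicate 2 of all 8 LPS groups. Calls that changed without these libraries are given with their values.

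The 8 members fell into a well-read and a barely read set. The mean of the 12 groups was 283 RPKM for Cfp, 54.2 for C3, 10.8 for C5ar1 and 4.96 for C3ar1. It was 0.0697 for C1qb, 0.0686 for Cfb, 0.0346 for C1qc and 0.0063 for C1qa. The Cfb value divides by all 3420 exon bases, of which 2246 are shared with Gm20547, so it may not show the true level. On this scale Cfp lay close to Calr (246), which encodes the chaperone calreticulin, and above the integrin chain Itgb2 (76.1), a subunit of complement receptors. The protease C1ra was at 8.96, the regulator Cr1l at 4.68 and the protease C1s1 at 0.868.

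**Figure D1:**
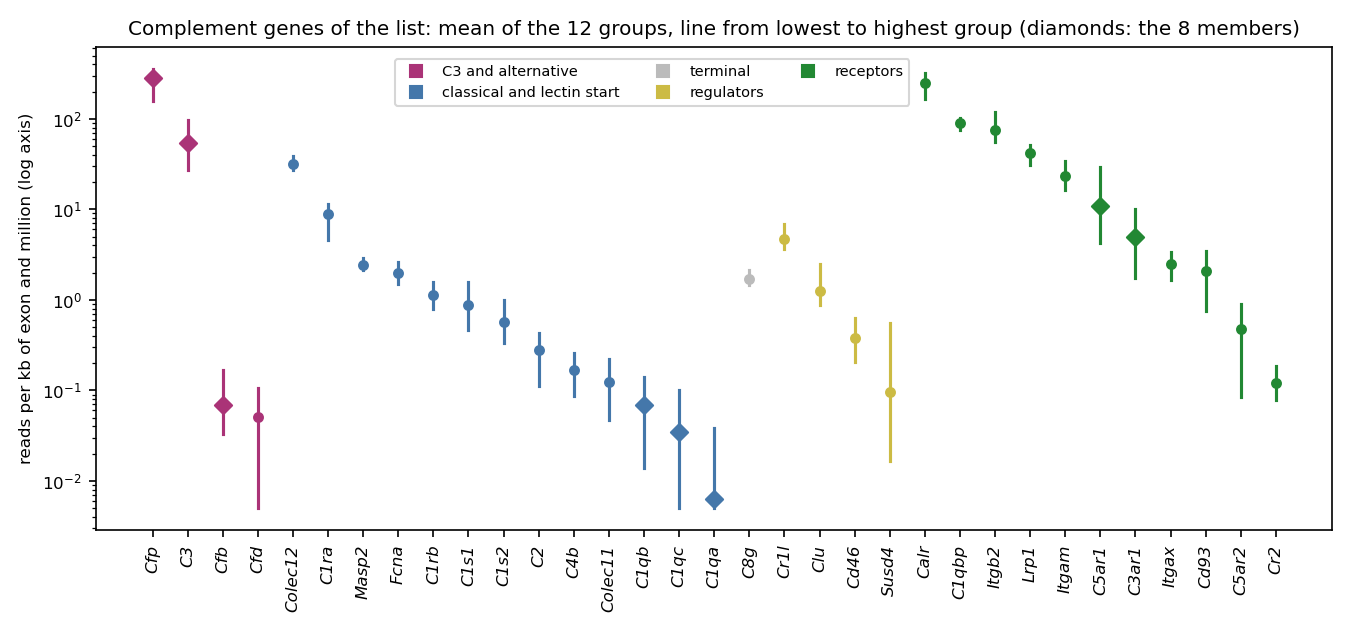
Mean level of complement genes over the 12 groups, in reads per kb of exon scaled to library size (RPKM) on a log axis, with lines from the lowest to the highest group mean, coloured by role. Diamonds mark the 8 members; other genes are drawn where their highest group reached 0.1, and a group at 0 is drawn at 0.005. Cfp (283) and C3 (54.2) stand at the upper end and C1qb, C1qc, C1qa and Cfb below 0.1.

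The barely read members gave few reads in any library. C1qa had 6 reads in the 36 libraries together and was at 0 in all 18 libraries of 24 h. A count of 0 allows up to 3 reads, which is 0.112 CPM (reads scaled to library size) in the deepest and 0.213 CPM in the shallowest library, for counting error alone. C1qc had 58 reads in all, of which 49 were in the 4 h libraries and 9 in those of 24 h. Cfb, the protease precursor of the alternative route, had 142 reads, with a single library at 10 or more (14 reads, LPS with CBD at 4 h). None of these 3 genes passed the filter of 10 normalised reads in at least 3 libraries in any comparison, so they have no test in the main fits. After 24 h Cfb had 9, 5 and 7 reads in LPS, 2, 2 and 1 in DMSO and 2, 4 and 1 in EtOH. At normalised levels of 9.93, 5.35 and 5.45 the LPS libraries were above all vehicle libraries and above all those with a drug at 24 h. The gap was small, since LPS with DMF replicate 3, with 7 reads, was at 5.25. At 24 h LPS with DMF had 2, 3 and 7 reads, LPS with MMF 4, 0 and 3 and LPS with CBD 1, 4 and 2. The share of all genes without overlap was not counted, and no effect on Cfb is read from this order. Of all genes tested, 22.7% and 20.5% were called for LPS against DMSO and EtOH at 24 h. Against LPS at 24 h, 25.1% were called with DMF, 0% with MMF and 48.7% with CBD. C1qc had 3, 2 and 3 reads in LPS at 4 h and 0 in all 3 LPS libraries at 24 h, where DMSO had 2, 1 and 2 and EtOH 0 in all 3. Without the filter, limma called Cfb with CBD against LPS at 24 h (log2 fold change -1.37, adjusted p = 0.0496), over time in LPS with CBD (-1.80, adjusted p = 0.011) and in the difference of the CBD effect between the times (-2.75, adjusted p = 0.0257). It called C1qc for LPS against DMSO at 24 h (-1.46, adjusted p = 0.0427) and over time in all 4 treatments with LPS (-2.19 to -1.48, adjusted p 0.00325 to 0.0292). With the filter, 48.9% to 63.2% of all genes were called over time in the 4 treatments with LPS. In the difference of the CBD effect it was 32%. The calls of Cfb and C1qc without the filter rest on few reads, and fitted values of genes at 0 depend on the pseudocount.

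C1qb was the best read C1q chain, with 265 reads in 33 of 36 libraries and at most 20 in 1 library. The 4 h libraries held 204 of these reads (3 to 20 per library) and the 24 h libraries 61 (0 to 10). It passed the filter in a part of the comparisons. In EtOH it had 12, 12 and 20 reads at 4 h and 10, 6 and 8 at 24 h. The log2 fold change was -1.10 (SE 0.37, adjusted p = 0.0265, limma with Benjamini-Hochberg adjustment), where 58.6% of all genes were called. In LPS with MMF it had 10, 16 and 11 reads at 4 h and 0, 2 and 7 at 24 h. This gave -2.32 on the log2 scale (SE 0.68, limma adjusted p = 0.0143), where 49.5% of all genes were called. In both treatments the groups did not overlap. C1qb passed the filter there only through its 4 h libraries, since normalised levels at 24 h reached at most 6.92 in EtOH and 5.45 in LPS with MMF. The filter itself thus favoured a fall, and these p-values and gaps add no support to it. Without the filter, limma called C1qb lower at 24 h in 5 of 6 treatments, all but LPS with DMF. The log2 fold changes were -2.36 to -1.10 (limma adjusted p 0.00533 to 0.0483), and these calls rest on few reads. In these treatments 48.9% to 63.2% of all genes were called over time with the filter. Under the filter, the C1qb value was -1.60 without LPS with MMF 24 h replicate 1, which had 0 reads, and -2.97 without replicate 3. Both were called, under the same selection by the 4 h libraries. The C1qb call in EtOH was lost with DESeq2 (adjusted p = 0.0754), with all 36 libraries in a single fit (limma adjusted p = 0.154) and without EtOH 24 h replicate 6 (limma adjusted p = 0.0735). In the LPS comparison with EtOH and in the drug comparisons at 4 h, where it was tested, C1qb did not pass, with log2 fold changes between -0.45 and 0.26. In bulk RNA, fewer cells with a transcript and less of it per cell cannot be told apart.

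**Figure D2:**
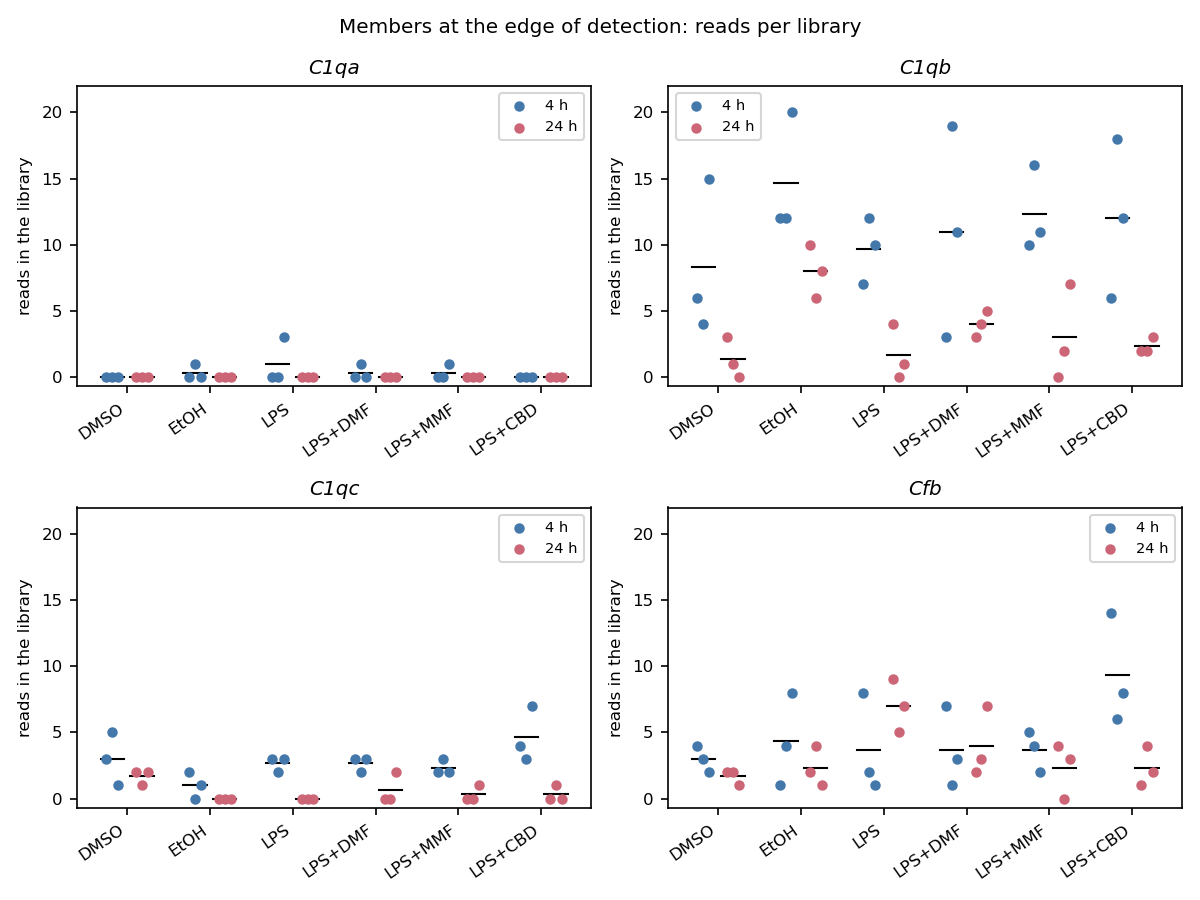
Reads per library of C1qa, C1qb, C1qc and Cfb by treatment, at 4 h (blue) and 24 h (red), with black lines at the mean of 3 libraries. C1qb ranges from 0 to 20 reads and is lower at 24 h (61 of its 265 reads), and C1qa has no read in any library of 24 h.

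The 4 well-read members had reads in every library, with 1461 to 11341 for C3, 4365 to 13835 for Cfp, 124 to 1194 for C3ar1 and 134 to 1811 for C5ar1. Levels below are normalised read counts, scaled over all 36 libraries by median-of-ratios factors. The fold changes come from the authors' normalised counts of each pair of groups, on the log2(count + 1) scale, and a gene is called at a limma adjusted p below 0.05. Ordered by level, each group's range overlapped that of the next group for C3, C3ar1 and C5ar1 in all 11 neighbouring pairs. For Cfp this held for 9 of 11 pairs, with gaps below LPS with MMF at 24 h and above LPS with CBD at 24 h. The ratio of the highest to the lowest group mean was 6.57 for C5ar1, 5.59 for C3ar1, 3.68 for C3 and 2.31 for Cfp.

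**Figure D3:**
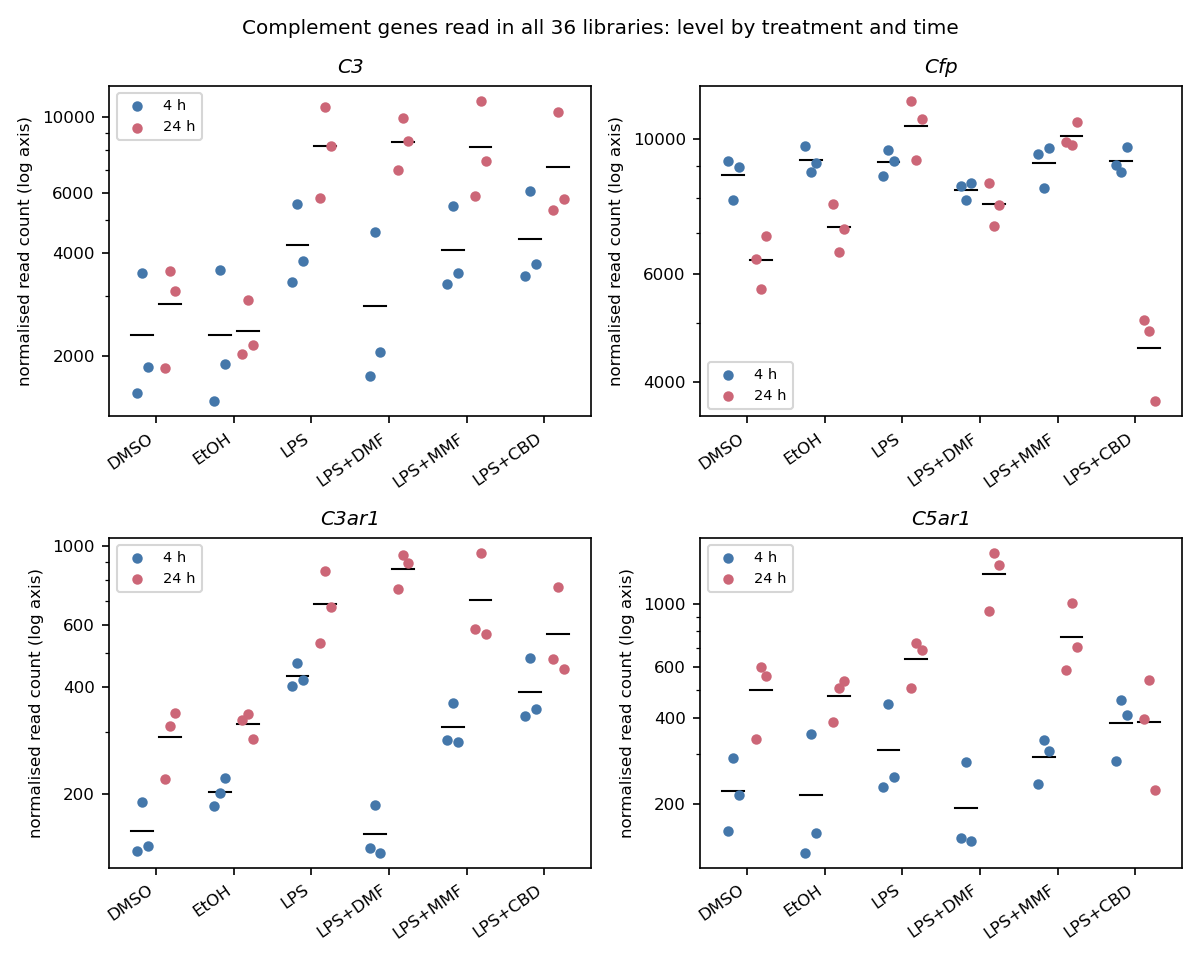
Normalised read count of C3, Cfp, C3ar1 and C5ar1 in each library (log axes), by treatment, at 4 h (blue) and 24 h (red), with black lines at the mean of 3 libraries. C3ar1 in LPS with DMF at 4 h (137 to 187) lies beside DMSO (138 to 190.3), Cfp is lowest in LPS with CBD at 24 h (3716 to 5049), and C5ar1 is highest in LPS with DMF at 24 h (944 to 1508).

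The first question was what LPS did to these genes against each vehicle. All LPS libraries carried other replicate numbers than the vehicle libraries. If the numbers mark separate sets of cultures, an effect of LPS cannot be told apart from a difference between these sets. After 4 h, C3ar1 was the member that rose, 2.74-fold over DMSO and 2.12-fold over EtOH. After 24 h, C3, C3ar1 and Cfp were all higher, C3 by 2.96-fold over DMSO and 3.45-fold over EtOH. C5ar1 did not pass in any of the 4 comparisons. Among all genes tested at 4 h, 14.1% were called against DMSO and 10.2% against EtOH; at 24 h it was 22.7% and 20.5%.

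C3ar1, the receptor for the C3 fragment, was read at 138, 190.3 and 143 in DMSO, 185, 201 and 222 in EtOH and 404, 468 and 419 in LPS at 4 h. Every LPS library was above every vehicle library. The log2 fold change was 1.45 over DMSO (SE 0.15, limma adjusted p = 0.000553) and 1.08 over EtOH (SE 0.11, limma adjusted p = 0.000766). At 24 h it was at 220.2, 310.0 and 338 in DMSO, 323, 336 and 286 in EtOH and 534, 850.4 and 674 in LPS, again without overlap. The log2 fold changes were 1.25 (SE 0.18, limma adjusted p = 0.00067) and 1.11 (SE 0.15, limma adjusted p = 0.000349).

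C3 was at 1562, 3501 and 1856 in DMSO, 1475, 3562 and 1896 in EtOH and 3297, 5569 and 3789 in LPS at 4 h. Replicate 5 of both vehicles was thus above replicate 1 of LPS, and the groups overlapped. The log2 fold change of 0.92 over DMSO (95% interval 0.25 to 1.59) was not called (limma adjusted p = 0.0718), nor was that of 0.94 over EtOH (0.22 to 1.65, limma adjusted p = 0.101). Without DMSO replicate 5 it was 1.27 (limma adjusted p = 0.0103), and without EtOH replicate 5 it was 1.30 (limma adjusted p = 0.0105). At 24 h C3 was at 1843, 3543 and 3108 in DMSO, 2024, 2908 and 2154 in EtOH and 5816, 10684 and 8229 in LPS. All LPS libraries were above all vehicle libraries. The log2 fold change was 1.57 (SE 0.24, limma adjusted p = 0.000879) over DMSO and 1.79 (SE 0.19, limma adjusted p = 6.85e-05) over EtOH.

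Cfp, which encodes properdin, differed little at 4 h, with 9185, 7937 and 8997 in DMSO, 9714, 8827 and 9127 in EtOH and 8680.4, 9569.5 and 9186 in LPS. The log2 fold changes of 0.07 (95% interval -0.11 to 0.24) and -0.01 (-0.16 to 0.14) were not called. At 24 h it was at 6349, 5675 and 6938 in DMSO, 7819, 6533 and 7105 in EtOH and 11518, 9209.7 and 10766 in LPS. Every LPS library was higher, by 1.68-fold over DMSO and 1.48-fold over EtOH (log2 fold changes 0.74, SE 0.10, limma adjusted p = 0.000299, and 0.56, SE 0.10, limma adjusted p = 0.00171). The effect of LPS differed between the times, as tested over 12 libraries. The difference of log2 fold changes, 24 h minus 4 h, was 0.66 with DMSO (limma adjusted p = 0.0096; 9.46% of genes were called) and 0.56 with EtOH (limma adjusted p = 0.0142; 9% of genes were called). For C3, C3ar1 and C5ar1 this difference was not called with either vehicle, with values between -0.22 and 0.84.

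C5ar1 was at 160.5, 289 and 215 in DMSO, 135, 351 and 158 in EtOH and 229.8, 448 and 249 in LPS at 4 h, with overlap between the groups. At 24 h it was at 337, 599.7 and 559 in DMSO, 387, 508 and 539 in EtOH and 507, 728 and 689 in LPS. The log2 fold changes at 24 h were 0.40 (95% interval -0.04 to 0.85, limma adjusted p = 0.182) and 0.43 (0.09 to 0.77, limma adjusted p = 0.0734). The value over EtOH was called with DESeq2 (adjusted p = 0.0323) and without LPS 24 h replicate 1 (0.59, limma adjusted p = 0.013).

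The vehicles themselves were compared as a background. No member was called between DMSO and EtOH at 4 h or 24 h, where 0% and 0.00854% of all genes were called with limma. Without adjustment 1051 genes passed 0.05 at 4 h, edgeR called 0 and DESeq2 called 87. Of the members both tools called 0. The log2 differences of the 4 well-read members, DMSO over EtOH, lay between -0.37 (C3ar1 at 4 h) and 0.22 (C3 at 24 h).

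**Figure D4:**
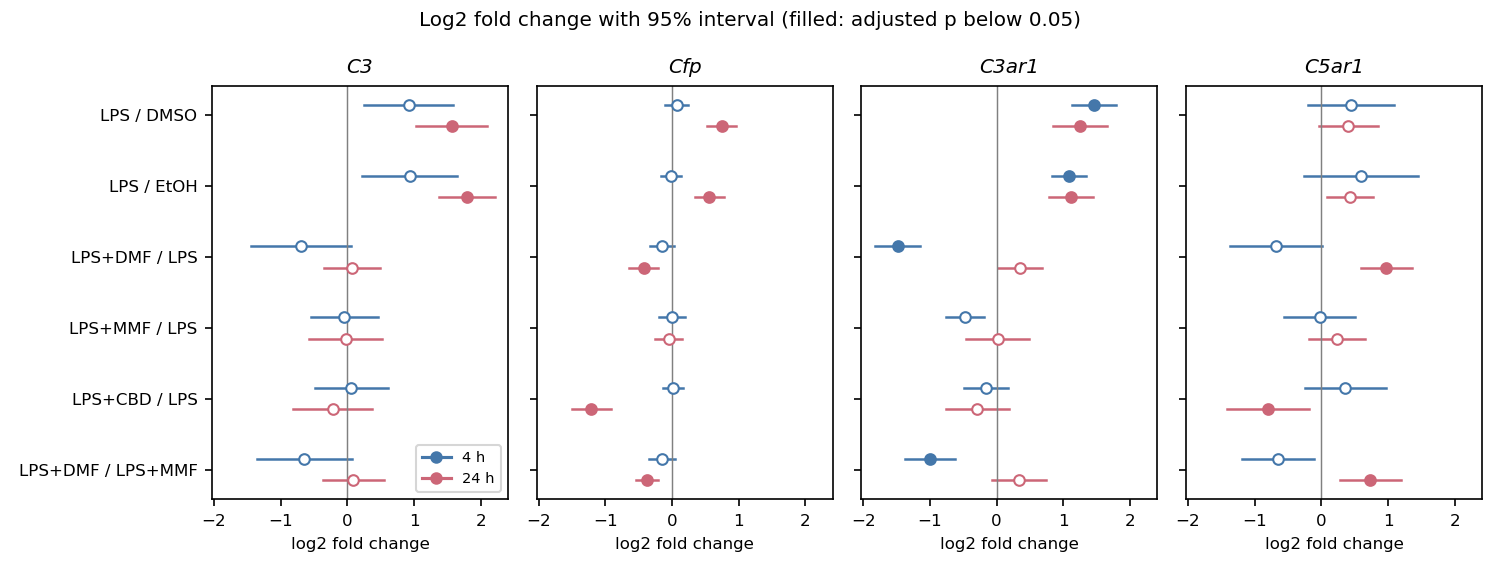
Log2 fold change of C3, Cfp, C3ar1 and C5ar1 with its 95% interval in each comparison at 4 h (blue) and 24 h (red), with filled points where the adjusted p was below 0.05. C3ar1 is at -1.48 in LPS with DMF over LPS at 4 h, Cfp at -1.21 in LPS with CBD over LPS at 24 h, and C5ar1 at 0.97 in LPS with DMF over LPS at 24 h.

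The second question was what each drug did to LPS-treated cells. The 3 drugs were compared with the same 3 LPS libraries at each time, so their values share these controls. DMF lowered C3ar1 at 4 h by 2.80-fold, to 141, 187 and 137, against 404, 468 and 419 in LPS. The vehicle libraries at 4 h were at 138 to 222. The log2 fold change was -1.48 (SE 0.15, limma adjusted p = 0.000505), and 11.1% of all genes were called. C3 was at 1751, 4598 and 2062 and C5ar1 at 152, 279.8 and 148. Neither was called, with log2 fold changes of -0.69 (95% interval -1.44 to 0.06, limma adjusted p = 0.244) and -0.68 (-1.36 to 0.01, limma adjusted p = 0.213). When same-numbered libraries were blocked, as their pairing allowed here, both were called, C3 at adjusted p = 0.0113 and C5ar1 at adjusted p = 0.00547 (limma). Without LPS with DMF 4 h replicate 2 they were called too, at -1.12 (limma adjusted p = 0.0067) and -0.98 (limma adjusted p = 0.0465). Cfp at 8351, 7926 and 8449 lay below the LPS libraries without overlap, and its log2 fold change of -0.15 was not called (limma adjusted p = 0.281).

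At 24 h under DMF, C5ar1 and Cfp were called. C5ar1, the receptor for the C5 fragment, was higher at 944, 1508 and 1359 against 507, 728 and 689 in LPS, 1.96-fold. All DMF libraries were above all LPS libraries, by 0.97 on the log2 scale (SE 0.17, limma adjusted p = 0.00335), where 25.1% of all genes were called. Cfp was lower at 8469.7, 7182 and 7798 (log2 fold change -0.42, SE 0.10, limma adjusted p = 0.0124), without overlap. That call was lost without LPS with DMF replicate 2, LPS with DMF replicate 3 or LPS replicate 3, with limma adjusted p of 0.0501 to 0.0581. C3ar1 at 754, 941 and 896 was not called, with a log2 fold change of 0.35 (95% interval 0.02 to 0.68, limma adjusted p = 0.108). C3ar1 was called with the replicate block (limma adjusted p = 0.00608) and without LPS 24 h replicate 2 (0.51, limma adjusted p = 0.0105). C3 at 6979, 9942 and 8509.7 had a log2 fold change of 0.07 (-0.35 to 0.48).

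The effect of DMF therefore differed between 4 h and 24 h for both receptors. The difference of log2 fold changes was 1.83 for C3ar1 (SE 0.23, limma adjusted p = 0.000122) and 1.65 for C5ar1 (SE 0.39, limma adjusted p = 0.00979), where 16.3% of all genes were called. For C3 it was 0.76 (95% interval -0.16 to 1.68, limma adjusted p = 0.249). C3 was called with the replicate block, a fit chosen after seeing the data (limma adjusted p = 0.00496), and without LPS with DMF 4 h replicate 2 (1.18, limma adjusted p = 0.019). For Cfp it was -0.27 (-0.55 to 0.01) and was not called.

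With MMF, limma, edgeR and DESeq2 called 0 of the tested members at either time, where limma called 0.122% of all genes at 4 h and 0% at 24 h. Without adjustment 440 genes passed 0.05 at 24 h, while edgeR called 0 and DESeq2 called 17. At 4 h, C3ar1 was at 285, 360.0 and 281, below every LPS library, with a log2 fold change of -0.48 (95% interval -0.76 to -0.20, limma adjusted p = 0.418, unadjusted p = 0.00379). C3 at 3257, 5512 and 3493, Cfp at 9425, 8290.4 and 9655 and C5ar1 at 234, 335 and 306 overlapped with LPS. Their log2 fold changes lay between -0.04 and 0.00. At 24 h the log2 fold changes were -0.02 for C3 (-0.57 to 0.52), -0.05 for Cfp (-0.26 to 0.16), 0.02 for C3ar1 (-0.46 to 0.49) and 0.24 for C5ar1 (-0.19 to 0.66). The libraries were at 5862, 11143 and 7462 for C3, at 9858, 9772 and 10639 for Cfp, at 585, 958 and 565 for C3ar1 and at 589, 1003 and 707 for C5ar1. The difference between the times was not called for any member, and 0% of all genes were called in that test with limma, with 385 genes at an unadjusted p below 0.05 and 0 called by edgeR and by DESeq2.

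With CBD at 4 h, limma, edgeR and DESeq2 called 0 of the 5 tested members, none of which had an unadjusted p below 0.05, where limma called 0.00875% of all genes. The log2 fold changes of the 4 well-read members lay between -0.16 (C3ar1) and 0.36 (C5ar1, 95% interval -0.25 to 0.96). C3 was at 3421, 6065 and 3729, Cfp at 9049.9, 8819.7 and 9671, C3ar1 at 333, 484 and 348 and C5ar1 at 282, 461 and 409. At 24 h, Cfp was 2.32-fold lower, at 5049, 4848 and 3716 against 11518, 9209.7 and 10766 in LPS. These were the lowest Cfp levels of the 12 groups, also below DMSO and EtOH at 24 h. The log2 fold change was -1.21 (SE 0.13, limma adjusted p = 8.52e-05), where 48.7% of all genes were called. The difference of the CBD effect between the times was -1.22 for Cfp (SE 0.16, limma adjusted p = 9.73e-05), where 32% of all genes were called.

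C5ar1 under CBD at 24 h was at 397, 540.5 and 224 and overlapped with LPS. Its log2 fold change of -0.80 (SE 0.27) was called (limma adjusted p = 0.0359), yet not with DESeq2 (adjusted p = 0.11) nor without any single one of LPS with CBD replicates 1 and 3 and LPS replicates 2 and 3 (limma adjusted p 0.0573 to 0.109). Without LPS with CBD replicate 3 the log2 fold change was -0.45. The difference of the CBD effect on C5ar1 between the times was -1.15 (95% interval -2.08 to -0.22, limma adjusted p = 0.0563). C5ar1 was called with the replicate block, a fit chosen after seeing the data (limma adjusted p = 0.00301). It was also called without LPS 4 h replicate 2, LPS with CBD 4 h replicate 1 or 24 h replicate 2 (limma adjusted p 0.0134 to 0.036). C3ar1 at 481, 767 and 451 had a log2 fold change of -0.29 (-0.76 to 0.19, limma adjusted p = 0.288), called with the replicate block (limma adjusted p = 0.027). C3 at 5346, 10368 and 5778 had one of -0.22 (-0.81 to 0.37, limma adjusted p = 0.51). Without LPS with CBD replicate 2 both were called, at -0.53 for C3ar1 (limma adjusted p = 0.0241) and -0.52 for C3 (limma adjusted p = 0.0497).

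DMF and MMF are the diester and the monoester of fumarate and were given at the same dose, so this 1 pair was compared directly at both times, with p-values adjusted over all genes tested. At 4 h, C3ar1 was 2.01-fold lower with DMF than with MMF, with no overlap (95% interval -1.38 to -0.63 on the log2 scale, limma adjusted p = 0.00697), where 8.34% of all genes were called. At 24 h, Cfp was lower with DMF (-0.37, SE 0.08, limma adjusted p = 0.00887), without overlap, and C5ar1 was higher (0.74, SE 0.20, limma adjusted p = 0.0298), where 21.5% of all genes were called. The C5ar1 groups overlapped, since MMF replicate 2 (1003) was above DMF replicate 1 (944). That call was lost with DESeq2 (adjusted p = 0.0605), with all 36 libraries in a single fit (limma adjusted p = 0.121) and without LPS with DMF replicate 2 or 3 or LPS with MMF replicate 1 or 3 (limma adjusted p 0.0849 to 0.119).

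For the members that did not pass between the esters, at 4 h the log2 fold change, DMF over MMF, was -0.65 for C3 (95% interval -1.36 to 0.07), -0.65 for C5ar1 (-1.19 to -0.11, limma adjusted p = 0.134) and -0.15 for Cfp (-0.34 to 0.04). C3 and C5ar1 were called without LPS with DMF replicate 2, at -1.08 (limma adjusted p = 0.00168) and -0.95 (limma adjusted p = 0.00362). At 24 h it was 0.09 for C3 (-0.36 to 0.54) and 0.33 for C3ar1 (-0.06 to 0.73). The latter was called with the replicate block (limma adjusted p = 0.0156) and without LPS with MMF replicate 2 (0.57, limma adjusted p = 0.00363).

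The third question was how levels moved from 4 h to 24 h within a treatment. The receptors rose in both vehicles. C3ar1 was higher by 0.84 in DMSO and 0.61 in EtOH on the log2 scale and C5ar1 by 1.14 and 1.25, all without overlap (limma adjusted p 0.00109 to 0.00389). Cfp fell by 0.49 and 0.39 on the log2 scale (limma adjusted p = 0.000879 and 0.00164). C3 did not pass in either, at 0.31 (95% interval -0.31 to 0.93) and 0.10 (-0.48 to 0.67). Replicate 5 at 4 h again decided the value, since without it C3 was called at 0.66 in DMSO (limma adjusted p = 0.0136) and 0.46 in EtOH (limma adjusted p = 0.0162). Of all genes, 51.6% were called in DMSO and 58.6% in EtOH.

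In LPS alone C3 rose by 0.95 (SE 0.23, limma adjusted p = 0.00634), C3ar1 by 0.64 and C5ar1 by 1.10 on the log2 scale, where 48.9% of all genes were called. Cfp did not pass at 0.19 (-0.04 to 0.42), and was called without LPS 24 h replicate 2 (0.28, limma adjusted p = 0.0343). In LPS with MMF the same members rose by 0.98, 1.14 and 1.36 (limma adjusted p 0.00016 to 0.00344), and 49.5% of all genes were called. In LPS with DMF the rise was 1.71 for C3, 2.48 for C3ar1 and 2.74 for C5ar1, that is 5.56-fold for C3ar1 and 6.68-fold for C5ar1, with limma adjusted p of 0.00058, 2.36e-06 and 1.19e-05. There 58.8% of all genes were called.

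In LPS with CBD, Cfp fell by 1.04 on the log2 scale (SE 0.11, limma adjusted p = 3.02e-05), C5ar1 was at -0.06 (-0.70 to 0.58) and C3ar1 at 0.51 (0.06 to 0.97, limma adjusted p = 0.0501). C3ar1 was called there with edgeR (adjusted p = 0.0409), DESeq2 (adjusted p = 0.0134) and without LPS with CBD 24 h replicate 3 or 4 h replicate 2. C3 was called at 0.67 (limma adjusted p = 0.0449) although its groups overlapped, and lost the call with DESeq2 (adjusted p = 0.142), with all 36 libraries in a single fit and without LPS with CBD 24 h replicate 2 or 4 h replicate 1 or 3. Of all genes, 63.2% were called in this comparison.

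**Figure D5:**
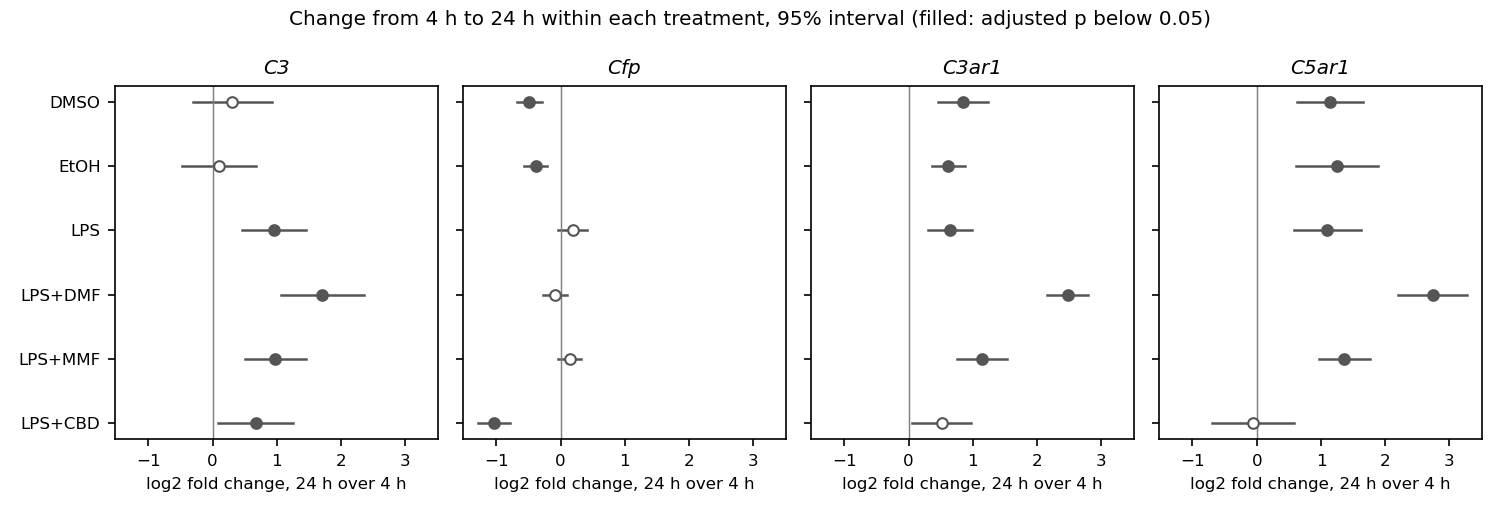
Log2 fold change from 4 h to 24 h within each treatment for C3, Cfp, C3ar1 and C5ar1, with its 95% interval and filled points where the adjusted p was below 0.05. Both receptors rose by 2.48 and 2.74 in LPS with DMF, and Cfp fell by 1.04 in LPS with CBD.

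The rest of the complement system was followed with a list of 50 genes, of which 42 were found and 21 to 23 passed the filter in a comparison. The others were not analysed here. After 24 h of LPS, 3 of 22 were higher and 2 lower against DMSO, and 4 of 23 were higher and 2 lower against EtOH, beside 22.7% and 20.5% of all genes called in either direction. The list had a median log2 fold change of 0.15 and 0.08 there, beside 0.01 and 0.01 over all genes tested. C1ra, a protease of the C1 complex, was at 0.73 and 0.77, and Itgam, a chain of complement receptors, at 0.72 and 0.64. Itgax, the partner chain of another such receptor, was lower at -0.58 and -0.60. After 4 h, 1 of 22 was called against DMSO, the receptor Lrp1 at -0.32 (14.1% of all genes were called), and 0 of 22 against EtOH (limma; 3 had an unadjusted p below 0.05).

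Under DMF at 24 h, 3 of 23 were higher and 4 lower than in LPS, beside 25.1% of all genes called. C1ra was among those lower. It was at 248 on average against 529.6 in LPS (log2 fold change -1.09, SE 0.11, limma adjusted p = 0.000227). C1s1, the other protease of the C1 complex, fell by 1.12 and Itgax rose by 1.02 on the log2 scale. With CBD at 24 h, 7 of 23 were higher and 2 lower, beside 48.7% of all genes called. Susd4, a complement regulator, rose from a mean of 9.05 to 94.7 (log2 fold change 3.44, limma adjusted p = 0.000187), and C5ar2, the second receptor for the C5 fragment, fell from 58.2 to 10.9 (-2.32, limma adjusted p = 0.000528). Itgb2 fell by 0.96. The list medians were -0.01 with DMF and 0.11 with CBD, beside -0.01 and -0.00 over all genes. With MMF at 24 h and with all 3 drugs at 4 h, limma called 0 of the 21 or 22 genes, and 1 to 3 had an unadjusted p below 0.05. Of all genes, 11.1% were called with DMF, 0.122% with MMF and 0.00875% with CBD at 4 h, and 0% with MMF at 24 h.

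Between the esters, 0 of 22 genes of the list were called by limma at 4 h (3 at an unadjusted p below 0.05), and 2 were higher and 1 lower with DMF of 23 at 24 h, beside 8.34% and 21.5% of all genes called. C1ra, named after its value was seen, was the lower one at -0.99 (SE 0.09, limma adjusted p = 0.000229). From 4 h to 24 h, between 5 and 9 genes of the list were higher and between 3 and 5 lower in the 6 treatments, beside 48.9% to 63.2% of all genes called.

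Likeness over the 12 group means was described by Pearson's r of the log2 levels, among 10096 genes with a mean of at least 50. The means share libraries, depth and the time points, so no test is given. C3 was most like Gsap (0.99), Lrrc25 (0.98) and Irak3 (0.98), and C3ar1 most like Rrad (0.98), Upp1 (0.98) and Dock10 (0.97). For C5ar1 these were Arhgap26 (0.97), Spaca6 (0.97) and Apobr (0.96), and for Cfp they were Cbl (0.96), Stard7 (0.94) and Slc16a13 (0.94). Among the members, C3 and C3ar1 had r of 0.93, C3ar1 and C5ar1 0.87, C3 and C5ar1 0.74, and Cfp between -0.03 and 0.02 with the other 3.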

How the data were processed

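Poly(A) RNA of 36 BV-2 cultures was sequenced by the study in 12 groups of 3. Per the submitters' processing notes, reads were checked with FastQC 0.12.1, trimmed with cutadapt 4.4 and Trimmomatic 0.39, aligned to GRCm39 with HISAT2 2.2.1, counted with HTSeq 2.0.3 and analysed with DESeq2 1.40.2 in R 4.3.1. The authors deposited 30 tables, each for a pair of groups, of counts divided by the size factors of that pair (unit signal). These tables also hold the authors' own fold changes and p-values, which were not used. The counts behind the deposited signal values were recovered from the step size in 155 of 180 library columns, which covered all 36 libraries; the other 25 had a size factor too near 1 for the step to be tested and were not used for this. In the 155 columns, 100% of 2695078 values were whole within 0.01, and 0 of 2020699 values present in several tables differed.

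Each pair was tested with limma 3.58.1 (R 4.3.3; trend) on log2(deposited value + 1), with genes at 10 or more in at least 3 of 6 libraries, two-sided, with Benjamini-Hochberg adjustment over all genes. Differences of effects between times used 12 libraries and joint factors. edgeR 4.0.16, DESeq2 1.42.0 and other settings were alternatives. The functions were checked on simulated counts. Same-numbered libraries were taken as paired where their deviations from the group means correlated above 0.1 for all 3 numbers, which held in 10 of 16 comparisons with shared numbers (r 0.126 to 0.746); these included DMF and CBD against LPS at both times, and MMF against LPS at 24 h but not at 4 h. Levels per kb used GENCODE exon lengths. The 3 libraries of a group differed by 4.83 to 31.0 chi-square units per degree of freedom, pair by pair, so none was a copy of another. The labels state that each experiment was repeated, so p-values measure the spread between repeats of a single cell line.

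The members, the wider complement list and the markers were chosen with earlier results of these data known. From the wider list the text names, per comparison of LPS or a drug, the 3 or fewer called genes that changed most, given a mean of 50 or more in whichever group was higher, and per tested member the 3 genes most like it. Calreticulin, Itgb2, C1ra, C1s1 and Cr1l as reference levels were named after their values were seen.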

Additional observations from a re-analysis of the deposited data

Results flagged for a closer look

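The effect of a treatment differed between 4 h and 24 h, by a test of the difference itself over 12 libraries, for 3 members. For C3ar1 the effect of DMF over LPS, 24 h minus 4 h, differed by 1.83 on the log2 scale (limma adjusted p = 0.000122), from a called decrease at 4 h to an uncalled value of 0.35 at 24 h. For C5ar1 the same difference was 1.65 (limma adjusted p = 0.00979), from an uncalled -0.68 to a called 0.97. For Cfp the effect of CBD differed by -1.22 (limma adjusted p = 9.73e-05), and that of LPS by 0.66 with DMSO (limma adjusted p = 0.0096) and by 0.56 with EtOH (limma adjusted p = 0.0142). All 5 calls were kept under all alternatives run for them, with the LPS libraries shared between the tests. Of all genes tested, 16.3% were called in the difference of the DMF effect and 32% in that of CBD. For LPS it was 9.46% with DMSO and 9% with EtOH. Groups of 3 were too small for a test of single outlying libraries.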

How the results depend on the processing

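No paired analysis was possible because of unshared numbers for LPS against a vehicle (1 to 3 against 4 to 6). Of 40 calls of a member in a comparison, 35 were kept under all alternatives that gave a value: a pseudocount of 5, no filter on low values, joint or TMM size factors, edgeR, DESeq2, all 36 libraries in 1 fit, each replicate left out, and the replicate block where numbers were shared. The 5 others were C1qb over time in EtOH, Cfp under DMF at 24 h, C5ar1 under CBD at 24 h, C5ar1 between the esters at 24 h and C3 over time in LPS with CBD. The 40 include the C1qb calls over time in EtOH and in LPS with MMF, where the filter favoured a fall. That in LPS with MMF is among the 35, and its being kept adds no support to it. No called value changed sign; 87 of 1662 alternative values changed sign where neither value was called. DESeq2 called 1 member in place of 2 under CBD at 24 h and between the esters at 24 h, and the fit of all 36 libraries called 1 in place of 2 between the esters. Without a filter, 5 members were called over time in LPS (3 in the report) and in LPS with CBD (2), and 2 in the difference of the CBD effect (1). It also added C1qb over time in DMSO and C1qc over time in LPS with DMF and in LPS with MMF. Further additions were C1qc for LPS against DMSO at 24 h and Cfb with CBD against LPS at 24 h. All additional ones were Cfb, C1qb or C1qc, which have few reads. With the replicate block, 3 members were called under DMF at 4 h (1 without it) and between the esters at 4 h (1). It called 1 under MMF at 4 h (0 without it), which was C3ar1 (limma adjusted p = 0.0307), and 2 in the difference of the CBD effect (1). The blocked fits of differences between the times, for DMF as well as CBD, were chosen after seeing the data. The block also called C3 over time in DMSO and C3ar1 over time in LPS with CBD. The numbers did not pair the libraries of these 2 comparisons, of MMF against LPS at 4 h or of the esters at 4 h (lowest r 0.00790 to 0.0809), so these blocked calls rest on a shared number alone. The block changed the calls given in the report, and changed no other call. With each replicate left out, the members called ranged from 1 to 2 for LPS against DMSO and against EtOH at 4 h, from 1 to 3 for DMF at 4 h, DMF at 24 h, the esters at 4 h and at 24 h and CBD over time, from 1 to 4 for CBD at 24 h, and from 1 to 2 in the difference of the CBD effect. The low reads of C1qa, C1qc and Cfb set the limit for these genes, and for Cfb the exon bases shared with other genes do so too.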
